A study of Mus musculus with 2 samples.

Results

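Interferon-stimulated genes were followed as a list of 41 mouse genes in single-cell libraries of digested whole lung. Members were taken by symbol from the feature list shared by both count matrices. 40 of the 41 were matched among 32285 genes, and all 40 had counts. Mx1 was not matched and is not analysed here. The animals were C57BL/6 mice that carried the SP-C I73T mutation, a changed surfactant protein C of alveolar type 2 cells, and both libraries came from mutant mice. 1 library was titled injured and 1 control, and the design text names a steady state and 14 d after injury. In this model a single oral gavage of tamoxifen, 175 mg/kg in corn oil, removes a neomycin cassette and raises the mutant transcript. The treatment tags run against the titles (the injured library is tagged untreated and the control library tamoxifen treated), so the words injured and control below follow the titles only. Under the tags every direction would belong to the opposite treatment. Nothing in the labels says how many animals were behind a library, and their age is not given in the sources used here.

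Interferons are secreted proteins that cells release on sensing virus, foreign nucleic acid or damage. Type I interferons bind the receptor pair encoded by Ifnar1 and Ifnar2, and the kinases Jak1 and Tyk2 then activate a complex that holds Stat2 and Irf9 and binds the interferon-stimulated response element in promoters. Interferon gamma acts through Ifngr1, Ifngr2 and Jak2 on another element, the gamma-activated site. Most members encode antiviral effectors, and circulating monocytes and neutrophils are known as strong responders.

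The response element could be read in the promoter windows, 250 bases before to 50 after the start, which RefSeq gives on GRCm38.p6. 31 of the 40 members had a window. Its core, GAAA followed after any 2 bases by GAAA, on either strand, was in windows of 19 of 31 members (61.3%), against 1079 of 27025 genes of the whole table (3.99%). The gamma-activated site TTCNNNGAA was in windows of 7 of 31 members (22.6%), against 9.55% of all genes. A match describes letters, not binding. The stretches below were chosen because Isg15, Ifit1, Ifit3 and Rsad2 were among the members with wide differences described below. Bst2 was among the most abundant members, and Stat2 was among those with the narrowest differences between the whole libraries. Capitals mark the matched core, and overlapping matches run together.
Isg15, chr4:156200850-156200921, minus strand: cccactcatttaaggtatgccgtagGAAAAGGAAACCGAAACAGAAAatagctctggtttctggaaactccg
Ifit1, chr19:34640760-34640838, plus strand: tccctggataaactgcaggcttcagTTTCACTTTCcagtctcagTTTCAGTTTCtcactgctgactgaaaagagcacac
Ifit3, chr19:34583348-34583441, plus strand: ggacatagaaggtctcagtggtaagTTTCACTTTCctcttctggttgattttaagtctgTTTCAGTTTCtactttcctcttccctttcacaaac
Rsad2, chr12:26456538-26456597, minus strand: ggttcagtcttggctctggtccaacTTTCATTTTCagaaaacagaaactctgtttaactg
Bst2, chr8:71537562-71537627, minus strand: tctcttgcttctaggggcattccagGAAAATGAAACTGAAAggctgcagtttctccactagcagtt
Stat2, chr10:128270251-128270310, plus strand: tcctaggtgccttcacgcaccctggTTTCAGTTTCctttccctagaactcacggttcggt
Isg15 held 3 overlapping matches, Ifit1, Ifit3 and Bst2 held 2 each, and Rsad2 and Stat2 held 1 each. The windows of Irf7 and Oasl2 did not hold these letters, which says nothing of elements outside the window. The 4 Ifit genes lie side by side on chromosome 19, between 34550694 (start of Ifit2) and 34650009 (end of Ifit1). Ifit3 and Ifit3b are near copies, so reads may be hard to assign to either, and their separate counts are less certain. The same limit applies to the Ifi200 family on chromosome 1.

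After filtering, the injured library held 2302 cells with 20122447 UMIs (unique molecular identifiers, each counting 1 captured transcript) and a median of 3269 per cell. The control library held 2298 cells, 16077700 UMIs and a median of 4504.5. 1 cell barcode was shared by the libraries. Cells were clustered with the members left out of the clustering genes, and clusters were named from marker lists, so a class below means neutrophil-like, monocyte-like and so on. Levels are UMIs of a gene scaled to a total of 1000000 for the class or library (CPM), and since each transcript is counted once they were not scaled by gene length. With 1 library per group no test between groups was possible: intervals are exact 95% intervals for counting error only, and a member is called lower or higher when its CPM differed at least 1.5-fold and it had at least 10 counts over both libraries. Free RNA was present in both: the airway transcript Scgb1a1 was found in 83.3% of injured B cells (median depth 3403.5 UMIs) and 99.7% of control B cells (4493 UMIs).

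In the whole libraries the members were lower in the injured library almost throughout. Their summed level was 847 CPM there, 3.61-fold lower than the control level of 3058 CPM (3.55 to 3.68). 38 of the 40 members were called lower, against 17.1% of all 15765 genes tested, and 0 were called higher, against 22.2% of all genes. The median log2 ratio of injured to control was -1.84 over the members and 0.08 over all genes tested. Ifitm3, Bst2 and Ifi27l2a held 41.5% of injured and 55.1% of control member UMIs, and without them the sum was 2.77-fold lower. Fewer cells of a type and less RNA per cell are both in these sums, and the classes below take them apart. With the 12 classes compared weighted by their injured UMI shares the difference was 3.10-fold, by their control shares 2.80-fold, and with each class weighted the same 3.22-fold, beside 3.82-fold over these 12 classes with each library's own shares. Without neutrophils and monocytes, a split chosen after seeing the data, the sum was 1.96-fold lower.

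**Figure D1:**
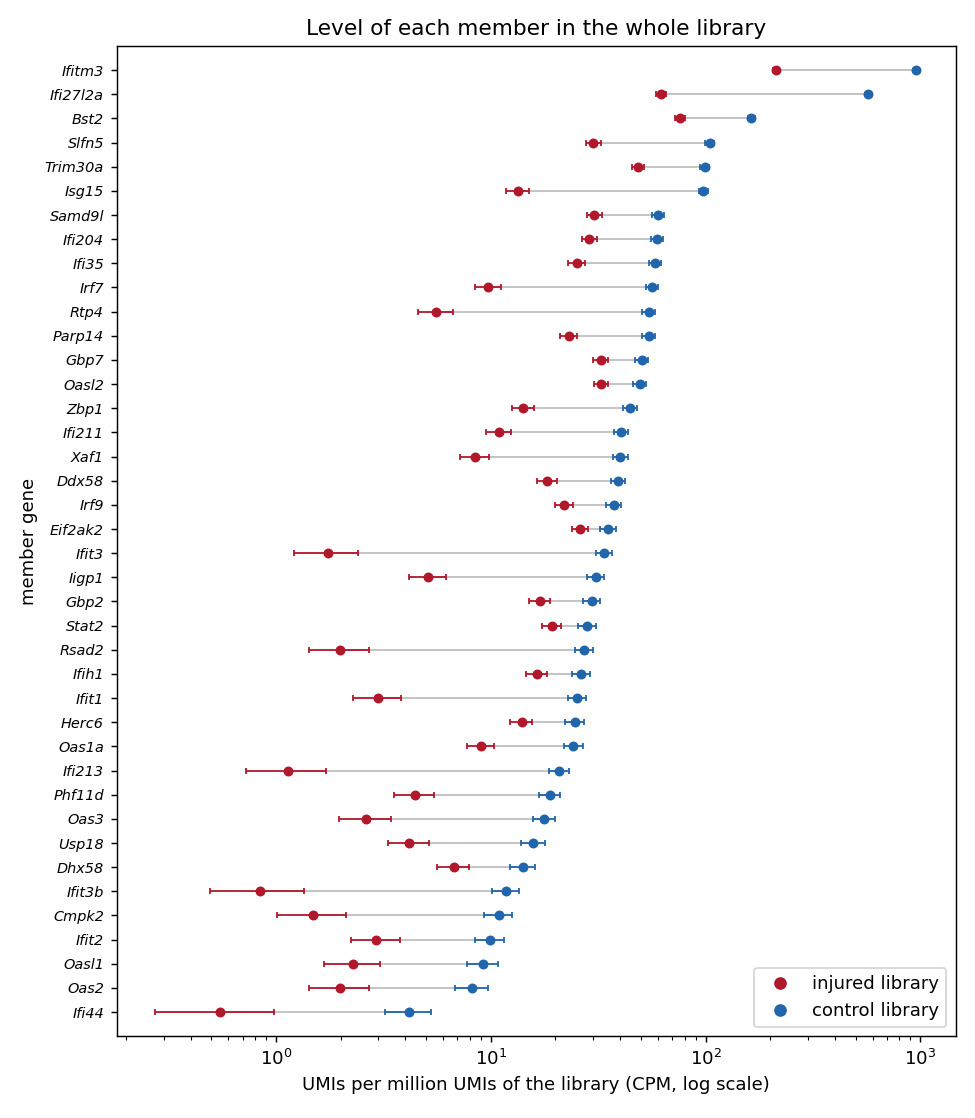
Level of each of the 40 members in the whole injured library (red) and control library (blue), in CPM on a log axis, with exact 95% counting intervals as bars. Every red point lies left of its blue point, and the gap is narrowest for Eif2ak2 and Stat2.

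The Ifit family, RNA-binding proteins that block translation of foreign transcripts, stood furthest apart. Ifit3 was at 1.74 CPM (injured) against 33.6 CPM (control), 19.3-fold lower (13.7 to 28.1). Ifit3b was at 0.845 and 11.8 CPM, Ifit1 at 2.98 and 25.3 CPM, and Ifit2 at 2.93 and 9.89 CPM. All 4 were low in the injured library and at least 3.37-fold higher in the control library.

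Of the ubiquitin-like modifier and its enzymes, Isg15, which is joined to other proteins and also secreted, was at 13.4 CPM (injured) against 97.7 CPM (control). Usp18, which removes Isg15 and restrains the receptor, was at 4.17 and 15.7 CPM. Herc6, the ligase that attaches Isg15 in mice, differed less, at 13.9 and 24.6 CPM. The group as a whole was 4.39-fold lower (4.02 to 4.80).

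Among the oligoadenylate synthetase family, which senses viral RNA and activates RNase L, Oas3 was at 2.63 and 17.8 CPM, Oas2 at 1.99 and 8.15 CPM, and Oas1a at 8.99 and 24.3 CPM. Oasl1, which lacks synthetase activity, was at 2.29 and 9.21 CPM. Oasl2 was at 32.6 and 49.3 CPM, 1.52-fold lower, which is close to the size rule. The spread within this family was therefore wide.

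The transcription factors and sensors spanned a wide range. Irf7, the factor that amplifies type I interferon production, was at 9.74 CPM (injured) against 56.4 CPM (control). Irf9 was at 21.9 and 37.5 CPM, while Stat2, at 19.2 and 28.1 CPM, was 1.47-fold lower and under the rule. Of the RNA sensors, Ddx58 (RIG-I) was at 18.3 and 39.2 CPM, Ifih1 (MDA5) at 16.3 and 26.4 CPM, and Dhx58, their regulator, at 6.71 and 14.1 CPM. Zbp1, a sensor of left-handed nucleic acid that can start cell death, was at 14.1 and 44.7 CPM. Eif2ak2, the kinase PKR, was at 26.0 and 35.1 CPM, 1.35-fold lower, and was the other member under the rule.

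The DNA-binding Ifi200 family was split. Ifi213 was at 1.14 and 20.8 CPM, 18.2-fold lower (11.9 to 29.1). Ifi211 was at 10.9 and 40.5 CPM and Ifi204 at 28.8 and 59.3 CPM. Of the GTPases that attack pathogens and their vacuoles, Iigp1 was at 5.12 and 30.9 CPM, Gbp2 at 16.9 and 29.5 CPM, and Gbp7 at 32.5 and 50.4 CPM, so Iigp1 stood apart from the guanylate-binding proteins.

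The membrane proteins were the most abundant group. Ifitm3, which blocks virus entry through endosomes, was at 213 CPM (injured) against 954 CPM (control). Ifi27l2a was at 62.1 and 569 CPM, 9.17-fold lower (8.64 to 9.74). Bst2 (tetherin), which holds budding virus at the cell surface, was at 75.9 and 163 CPM, and Rtp4 at 5.57 and 54.4 CPM. All 4 were lower in the injured library, Rtp4 and Ifi27l2a most.

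Of the other effectors, Rsad2 (viperin), an enzyme that makes a chain-terminating nucleotide, was at 1.99 and 27.2 CPM, 13.7-fold lower (9.90 to 19.5). Cmpk2, a nucleotide kinase of mitochondria, was at 1.49 and 10.9 CPM. Ifi44 was the least abundant member, at 0.547 and 4.17 CPM. Xaf1 was at 8.45 and 40.2 CPM, Phf11d at 4.42 and 18.8 CPM, and Slfn5 at 30.0 and 104 CPM. Parp14 (23.1 and 54.4 CPM), Ifi35 (25.1 and 58.3 CPM), Trim30a (48.5 and 99.1 CPM) and Samd9l (30.3 and 60.0 CPM) differed about alike. Over the whole list, 4 members were at least 10-fold lower, 13 at least 5-fold and 31 at least 2-fold. The share of all genes at these cut-offs is not given, so these counts are not set against a background.

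The summed level differed more between cell classes than between the libraries. In the control library classical monocytes had the highest sum, 16792 CPM, followed by neutrophils (12137 CPM), nonclassical monocytes (7732 CPM) and capillary endothelial cells (7028 CPM). Alveolar type 2 cells and alveolar macrophages were lowest, at 517 and 519 CPM, and their intervals overlapped. In the injured library the order was another: capillary endothelial cells led with 4162 CPM, then mesothelial cells (3239 CPM) and classical monocytes (2765 CPM), and neutrophils were at 1137 CPM. Classical monocytes were 4.44% of control cells and held 38.1% of the control member UMIs. For 19 members the highest control class with at least 10 cells was the neutrophil and for 16 the classical monocyte, against 3 and 3 in the injured library. The exceptions in the control library were Ifi44, Phf11d, Iigp1 and Gbp7, highest in capillary endothelium, and Bst2. The Bst2 level was highest in the type 2 dendritic cells, where it was nearly level with capillary endothelium.

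**Figure D2:**
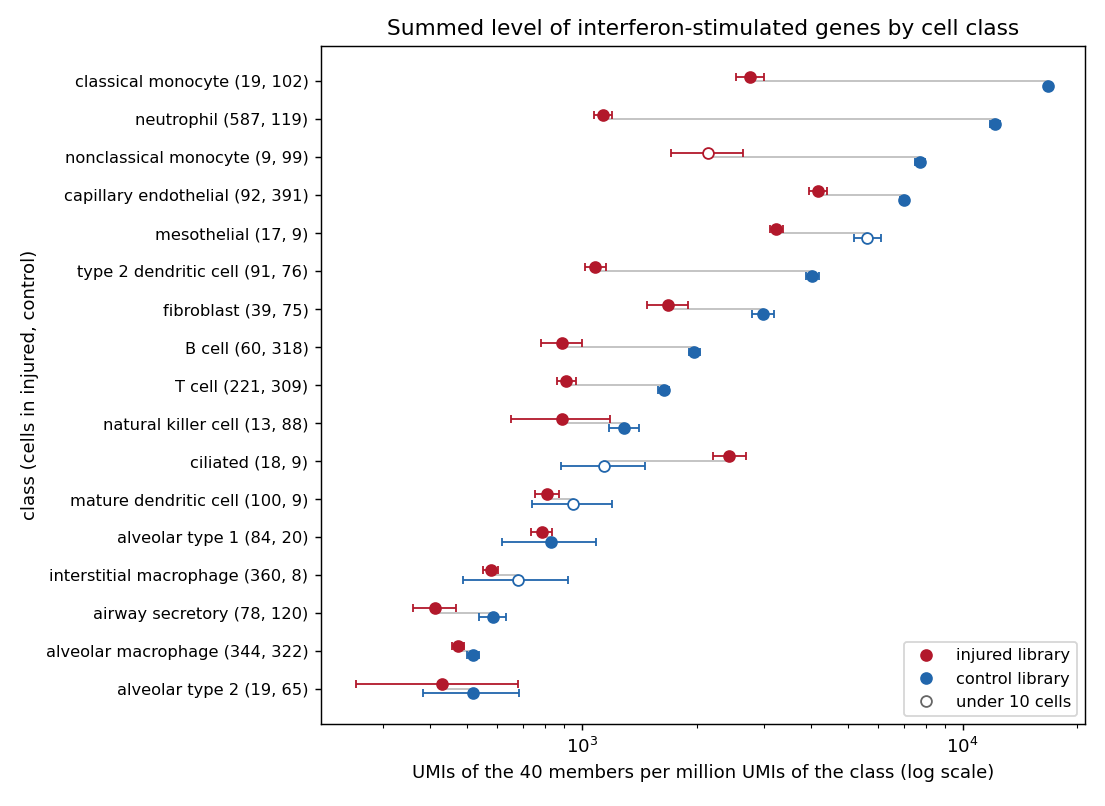
Summed level of the 40 members in each class (rows, ordered by the control level, with cell numbers in brackets) in the injured (red) and control (blue) library, in CPM of the class on a log axis, with exact 95% counting intervals as bars; open points rest on under 10 cells. The widest gaps are in neutrophils and classical monocytes, while the alveolar macrophage and alveolar type 1 points lie close together.

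Neutrophils had the widest difference in the joint clustering. The 587 injured cells summed to 1137 CPM and the 119 control cells to 12137 CPM, 10.7-fold lower (10.04 to 11.4). 33 of 35 members tested were called lower, against 10% of all 7771 genes tested in neutrophils. 15 members were at least 10-fold lower, a cut-off for which the share of all genes is not given. 1 was called higher, against 55.3% of all genes. The median log2 ratio was -3.19 over the members and 0.62 over all genes. Ifi27l2a was at 26.1 CPM in injured and 2440 CPM in control neutrophils, 93.6-fold lower (65.7 to 138). Isg15 was at 31.0 and 1818 CPM, from 38 and 605 counts, 58.7-fold lower (42.3 to 83.8). Rsad2 gave 1 injured and 222 control counts, a ratio of 818 (145 to 32472), and Ifit3 gave 0 and 101 counts, at least 124-fold lower against a floor of 3 counts over the class. Ifit3b gave 1 and 56 counts, a ratio of 206 (35.6 to 8299). The Ifit transcripts of the injured neutrophils were thus at or near the limit of counting. Oasl2 (268 and 625 CPM, 2.33-fold lower), Ifitm3 (261 and 1800 CPM, 6.90-fold) and Trim30a (158 and 511 CPM, 3.23-fold) were the most abundant members there and stayed well above it.

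Stat2 was the exception in direction in neutrophils, at 29.3 CPM from 36 injured counts and 12 CPM from 4 control counts, a ratio of 2.44 (0.875 to 9.44). Ifi35 differed by less than the rule, at 33.4 and 45.1 CPM. The classes were not composed alike: 427 of the 587 injured neutrophils formed a cluster with 4 control cells, and 160 injured and 115 control cells shared another. Within the shared cluster the sum was 1279 CPM (injured) against 12841 CPM (control), 10.0-fold lower (9.14 to 11.1), and 33 of 33 members tested were called lower, against 16.8% of all genes. The 4 control cells in the mostly injured cluster were at 475 CPM (217 to 902) and its injured cells at 1072 CPM. Summed neutrophil markers were 93616 CPM in injured and 145739 CPM in control neutrophils, all 10 markers had counts in both, and the part of neutrophil state in the member values was not tested.

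Classical monocytes, blood-derived phagocytes marked by Ly6c2 and Ccr2, had the highest control level and the second widest difference in the joint clustering. The 19 injured cells summed to 2765 CPM and the 102 control cells to 16792 CPM, 6.07-fold lower (5.59 to 6.61). All 38 members tested were called lower, against 23.5% of all genes, and 0 higher, against 23.4%. 10 of the 38 had no count in the injured cells. Ifitm3 was at 1927 and 6570 CPM, 3.41-fold lower, and Ifi27l2a at 144 and 3541 CPM, 24.5-fold lower (17.1 to 36.4), while Ifi204 was at 140 and 546 CPM. Rtp4 gave 1 injured and 317 control counts, a ratio of 59.0 (10.5 to 2336). Isg15 was at 19.3 and 454 CPM, 23.6-fold lower (9.15 to 86.9), Slfn5 at 57.8 and 604 CPM, and Irf7 at 24.1 and 430 CPM. Oasl2, with 0 and 300 counts, was at least 18.6-fold lower, and Ifit3, with 0 and 260 counts, at least 16.1-fold lower. Among members with counts in both libraries the smallest differences were in Gbp7, on 5 and 60 counts (2.23-fold, 0.905 to 7.12), and Herc6, on 5 and 71 (2.64-fold, 1.08 to 8.38). The members thus went 1 way in this class, by unequal amounts.

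The injured monocytes were few, and how many were counted depended on the clustering. With each library clustered alone the class held 118 injured and 98 control cells and the sum was 18.6-fold lower, and at a finer resolution it held 108 and 110 cells and was 17.9-fold lower. Both folds lie above the neutrophil folds, which ran from 9.33 to 12.5 over all settings tried. Marker sums were read only for the joint clustering, so whether the injured cells added under these settings were monocytes was not tested. In the joint clustering without Ifitm3, Bst2 and Ifi27l2a the monocyte fold was 9.47, against 9.33 in neutrophils, so the order of the 2 classes depended on the setting. Ifitm3, which is abundant in monocytes, made up 400 of the 574 member UMIs of the injured class.

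Nonclassical monocytes, the patrolling cells marked by Ace and Treml4, had 9 injured and 99 control cells, under the 10 cells set for a comparison. Their control level was 7732 CPM, below the classical monocytes and above every class but those and the neutrophils. Ifitm3 was at 4396 CPM and Ifi27l2a at 1221 CPM in the control cells. Ifitm3 alone thus made up most of that sum. The 9 injured cells were at 2144 CPM (1710 to 2655).

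Dendritic cells split by type. Conventional type 2 dendritic cells, which present antigen to helper T cells, summed to 1086 CPM (91 injured cells) and 4029 CPM (76 control cells), 3.71-fold lower (3.45 to 3.99). 26 of 32 members tested were called lower, against 16.7% of all genes, and 1 higher, against 24.1%. Ifi27l2a was at 19.8 and 827 CPM, 41.8-fold lower (26.5 to 70.1), Bst2 at 87.4 and 692 CPM, 7.92-fold lower, and Ifitm3 at 338 and 1116 CPM. Without these 3 genes the class was 2.18-fold lower, so much of its difference lay in the membrane proteins. Rtp4, on 2 and 15 counts, had a ratio of 12.1 (2.82 to 109). Slfn5 was at 94.6 and 158 CPM. Irf9 (49.9 and 50.5 CPM), Ifih1 (20.8 and 16.8 CPM) and Stat2 (55.1 and 45.5 CPM) were within the rule. Dhx58 was called higher, at 17.7 CPM from 17 injured counts and 10.1 CPM from 6 control counts.

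Mature dendritic cells, marked by Ccr7 and Fscn1, summed to 809 CPM (100 injured cells) and 950 CPM (742 to 1198, 9 control cells), too few to compare. Plasmacytoid dendritic cells, known as the main makers of type I interferon, formed no cluster. 2 injured and 6 control cells of the type 2 class had 4 or more of 9 plasmacytoid markers and held 11% and 15.7% of its member UMIs, and their part in the class difference was not tested.

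Natural killer cells had 13 injured and 88 control cells. Their sum was 889 CPM and 1290 CPM, 1.45-fold lower (1.07 to 2.0), which is under the 1.5-fold rule. With size factors it was 1.69-fold lower, past the rule, and without the richest cell of each library 1.16-fold. 11 of 20 members tested were called lower and 4 higher, against 29.9% and 26.1% of all genes. 8 of the 11 lower members had no count in the 13 injured cells, and for 7 of these the floor of 3 counts leaves the fold under the rule, among them Rsad2, Irf9 and Slfn5 with 13, 12 and 10 control counts. Ifi27l2a, on 0 and 34 counts, was at least 1.56-fold lower. The higher members were Ifitm3 (4 and 9 counts), Irf7 (5 and 15), Herc6 and Zbp1. Trim30a was at 132 and 96.4 CPM, Samd9l at 56.7 and 120 CPM, and Zbp1 at 132 CPM from 7 counts and 62.5 CPM from 24. 1 control cell held 28.7% of the member UMIs of that library's class, and without the richest cell of each library 6 members were called lower. The counts behind this class are few, 47 injured and 495 control member UMIs.

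T cells, here with a cluster that also carried innate lymphoid markers, were at 911 CPM (221 injured cells) and 1638 CPM (309 control cells), 1.80-fold lower (1.68 to 1.93). 20 of 34 members were called lower, against 6.42% of all genes, and 2 higher, against 40.3%, namely Gbp7 (108 and 56.1 CPM) and Oas3 (10.4 and 6.47 CPM). Ifi27l2a was at 127 and 548 CPM, 4.31-fold lower, and Isg15 at 11.2 and 46.4 CPM, 4.14-fold lower. Ifit3, on 3 and 33 counts, had a ratio of 7.42 (2.33 to 37.8), Oasl1, on 1 and 11, one of 7.42 (1.08 to 319), and Ifit3b, on 0 and 21, was at least 4.72-fold lower. Trim30a (74.3 and 77.7 CPM), Samd9l (54.4 and 56.1 CPM), Herc6 and Eif2ak2 (27.2 and 18.3 CPM) were within the rule. Without Ifitm3, Bst2 and Ifi27l2a the sum was 1.35-fold lower, which is under the rule.

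B cells were at 886 CPM (60 injured cells) and 1973 CPM (318 control cells), 2.23-fold lower (1.96 to 2.53). 21 of 31 members were called lower, against 22% of all genes, and 4 higher (Oasl2, Bst2, Zbp1 and Gbp2), against 23.4%. Ifi27l2a was at 94.3 and 849 CPM, 9.0-fold lower. Xaf1 gave 1 and 65 counts, a ratio of 11.8 (2.05 to 475). Usp18 and Ifit1 gave 0 injured and 13 and 12 control counts, where the floor leaves no fold. Samd9l, at 80.9 and 120 CPM, was within the rule. Bst2 was among the higher members, at 226 and 123 CPM, but 1 injured cell with 39211 UMIs gave 56 of its 67 counts and 26.996% of all member UMIs of the class. The same cell gave 11 of the 18 injured Zbp1 counts, so the higher calls of Bst2 and Zbp1 rest largely on 1 cell. That cell had 3 of the 9 plasmacytoid markers. Without the richest cell of each library the sum was 2.59-fold lower.

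Fibroblasts had 39 injured and 75 control cells and a sum of 1680 and 2991 CPM, 1.78-fold lower (1.55 to 2.05). 11 of 16 members tested were called lower and 0 higher, against 30.7% and 24.4% of all genes. Ifitm3 carried most of the counts, at 1008 and 1690 CPM, 1.68-fold lower. Bst2 was at 45.2 and 182 CPM, 4.03-fold lower (1.82 to 10.5), and Ifit2, on 1 and 13 counts, had a ratio of 7.19 (1.08 to 305). Ifi35, on 0 and 18 counts, was at least 3.32-fold lower, and Phf11d gave 2 and 12 counts. Slfn5 (58.2 and 75 CPM), Gbp7 (38.8 and 35.7 CPM) and Samd9l (25.8 and 25 CPM) were within the rule. Ifi27l2a, at 187 and 264 CPM, differed 1.41-fold (0.907 to 2.25), under the rule. The fibroblast call did not hold with a mitochondrial limit of 10% in place of 15%. The cells were then clustered anew, the class held 53 and 57 cells, and the sum was 1.10-fold lower, so the filter and the class membership changed together.

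Capillary endothelial cells kept a high level in both libraries, at 4162 CPM (92 injured cells) and 7028 CPM (391 control cells), 1.69-fold lower (1.59 to 1.79). 26 of 35 members were called lower, against 22.1% of all genes, and 1 higher, against 21.5%. Iigp1 was at 54.2 and 399 CPM, 7.37-fold lower (4.54 to 12.8), and 405 of its 496 control counts lay in this class. Isg15 was at 35.1 and 213 CPM, 6.07-fold lower, and Bst2 at 230 and 691 CPM. Ifi27l2a gave 1 and 63 counts, a ratio of 19.5 (3.37 to 781). Ifitm3, the most abundant member here, was 1.46-fold lower at 2067 and 3026 CPM. Samd9l was called higher, at 156 and 81.9 CPM, and Slfn5 (667 and 534 CPM) and Stat2 (54.2 and 38.5 CPM) were above the control level by less than the rule. The class pooled clusters whose sums differed by unequal amounts. The larger, with 65 injured and 278 control cells, was 1.39-fold lower (1.27 to 1.52), under the rule. The smaller, with 27 and 113 cells, was 1.91-fold lower (1.76 to 2.08). Mesothelial cells, the lining of the pleura, had 17 injured and 9 control cells and were not compared. Their sums were 3239 CPM and 5623 CPM.

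Alveolar macrophages, the resident phagocytes of the airspace, had the smallest difference among the large classes. Their sum was 473 CPM (344 injured cells) and 519 CPM (322 control cells), 1.10-fold lower (1.04 to 1.15), although the cells lay in different clusters (343 of the injured in 1 and 319 of the control cells in another). 8 of 29 members were called lower and 6 higher, against 21.6% and 15% of all genes. Ifi27l2a was at 53.2 and 46.4 CPM, Bst2 at 65.9 and 63.6 CPM, Trim30a at 46 and 61.6 CPM, and Isg15 at 7.5 and 5.84 CPM. Ifi27l2a and Isg15, far lower in injured neutrophils and classical monocytes, were thus within the rule here. Ifi204 was called higher, at 39.0 and 16.4 CPM, a ratio of 2.38, as was Ifit1 on 10 and 1 counts (ratio 8.81, 1.25 to 383) and Slfn5 at 4.71 and 2.34 CPM. Ifitm3 (4.56 and 13 CPM, 2.85-fold), Xaf1 (3.53 and 8.51 CPM, 2.41-fold) and Ifi35 (15 and 32.9 CPM, 2.19-fold) were lower.

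Alveolar type 1, alveolar type 2 and airway secretory cells had sums under 1000 CPM in both libraries. In alveolar type 1 cells, the flat cells of gas exchange, the sum was 784 CPM (84 injured cells) and 827 CPM (20 control cells), 1.06-fold lower (0.781 to 1.40). 8 of 26 members were called lower and 12 higher, against 22.8% and 40.2% of all genes. 9 of the 12 higher members had no count in the control cells, among them Phf11d, Gbp2 and Trim30a with 31, 14 and 10 injured counts, and the median depth there was 994.5 UMIs against 13489.5. Samd9l gave 92 and 2 counts, Bst2 98 and 1, and Ifitm3 130 and 4, while Ifih1, Parp14 and Ifi35 were called lower on 6 control counts each. The cluster of this class also carried type 2 markers. 1 cell of each library held 17.6% (injured) and 33.3% (control, 17 UMIs) of the member UMIs of its class. Over the 8 settings that gave a value, the control-to-injured ratio of the sum ran from 0.846 to 2.36, so its direction depended on the setting.

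Alveolar type 2 cells, which make surfactant and carry the mutant protein, summed to 430 CPM (19 injured cells) and 517 CPM (65 control cells), 1.20-fold lower (0.688 to 2.19). Only Ifitm3 (3 and 13 counts) and Ifi27l2a (0 and 10 counts) could be tested, and both were called lower (2 of 2, and 0 higher, against 20.5% and 37.1% of all genes). For Ifi27l2a the floor of 3 counts leaves the fold at 1.47, under the rule. The remaining members had too few counts here to be read.

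Airway secretory cells summed to 410 CPM (78 injured cells) and 583 CPM (120 control cells), 1.42-fold lower (1.22 to 1.66), with 3 of 10 members called lower and 2 higher, against 13.9% and 45.3% of all genes. Ifi27l2a, on 0 and 81 counts, was at least 15.7-fold lower, but 1 control cell gave 47 of the 81 counts, and Oas1a gave 1 and 9 counts. Iigp1 went the other way, with 23 injured and 0 control counts, at least 13.2-fold higher, as did Eif2ak2 on 7 and 3 counts. Ifitm3 (272 and 322 CPM) and Bst2 (33.6 and 25.8 CPM) were within the rule. 1 secretory cell of each library held 35.3% (injured) and 34.98% (control) of the member UMIs, and with the mitochondrial limit at 10% the direction turned, to a control-to-injured ratio of 0.571.

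The other classes were too small in 1 library to compare. Interstitial macrophages marked by C1q genes were at 576 CPM (360 injured cells) and 678 CPM (8 control cells). Ciliated cells were at 2440 CPM (18 injured cells) and 1144 CPM (9 control cells), and 1 injured cell held 56.4% of their member UMIs. Clusters without a name held 151 injured and 159 control cells.

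**Figure D3:**
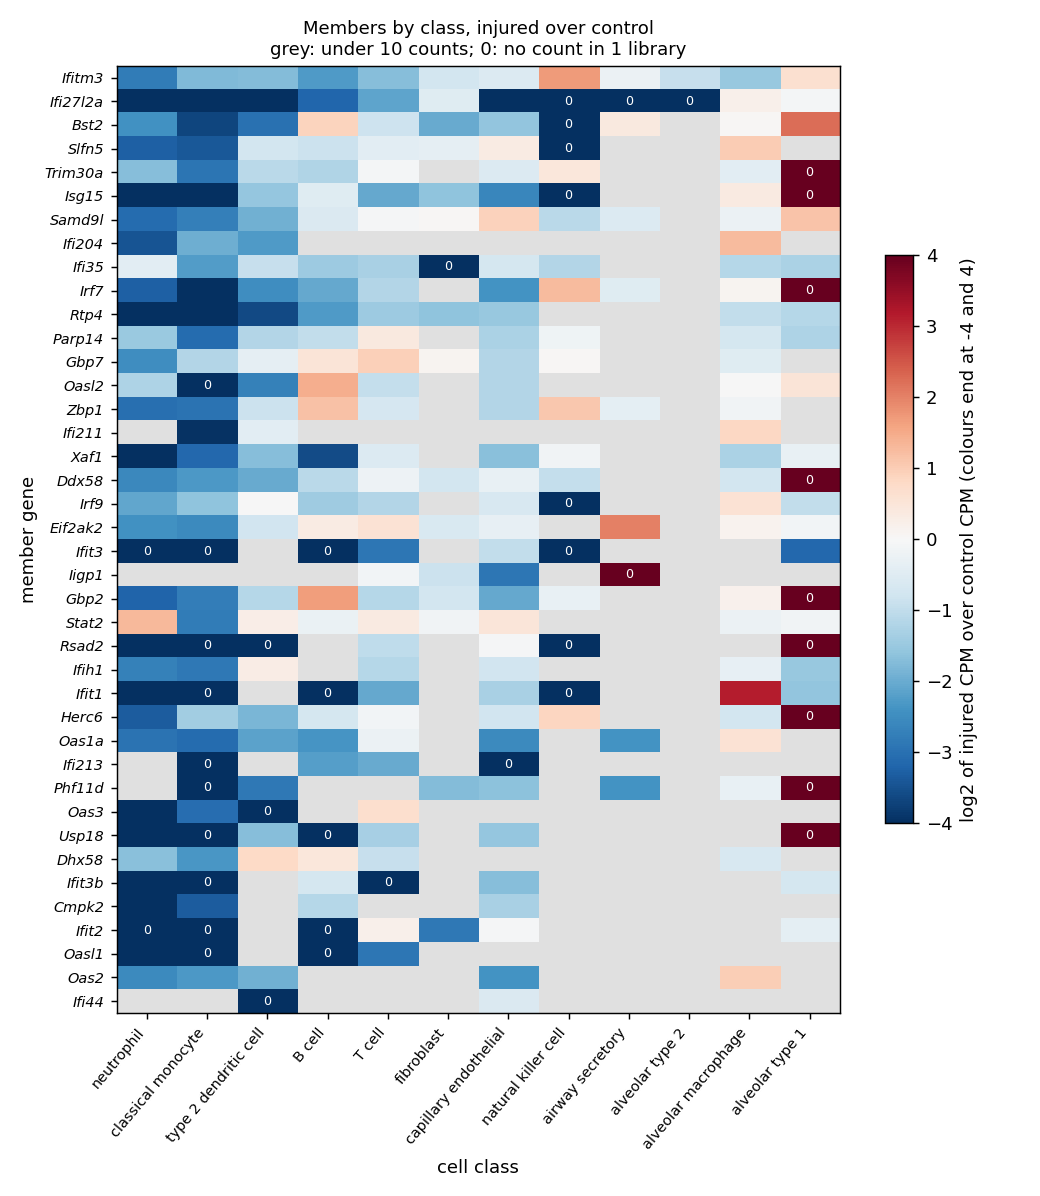
Log2 ratio of injured to control CPM for each member (rows, ordered by control level in the whole library) in the 12 classes compared (columns, ordered by the fold of the sum). Blue is lower and red higher in the injured library, grey cells had under 10 counts, and 0 marks a member without counts in 1 library; the neutrophil and classical monocyte columns are blue almost throughout, and the alveolar macrophage and alveolar type 1 columns are mixed.

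Across the 12 classes the members did not behave alike. Ifi27l2a could be tested in 12 and was called lower in 9 and higher in 0. Rtp4 was called lower in 9 of 9 classes tested and Ifi35 in 9 of 10. Ifit3 was called lower in 7 of 7 classes and Ifit3b in 6 of 6. Some of these calls rest on no injured count, such as Ifit3 in natural killer cells (0 and 12 counts), where the floor leaves no fold. How often other genes were called lower over as many classes is not given. Stat2, which had a motif match like the others printed above, was called lower in 1 of 9, the classical monocyte, and higher in 1, the neutrophil. Samd9l was called lower in 4 and higher in 2 of 11 classes, and Gbp7 lower in 3 and higher in 1 of 9. The classes share their libraries, so these counts describe 1 pair of libraries and are not repeats of the comparison.

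The spread between cells was described after thinning each cell to 1000 UMIs, which leaves out shallower cells. Control neutrophils had the widest spread. Their 111 cells had a median of 7 member UMIs per 1000, a 90th percentile of 27 and a maximum of 125, and the variance was 24.4 times the mean (Fano factor, which is 1 for pure counting noise). The 543 injured neutrophils had a median of 1, a 90th percentile of 3, a maximum of 21 and a Fano factor of 2.25. Both libraries thus held neutrophils with few member UMIs, but the control median lay above the injured 90th percentile. The control library also had a long upper tail. The richest 10% of cells held 44.1% (control) and 39.3% (injured) of the member UMIs. The counting intervals of the sums do not cover this spread between cells.

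Classical monocytes were shifted as a whole. The 101 control cells had a 10th percentile of 8, a median of 15 and a maximum of 39, with a minimum of 3 and a Fano factor of 2.86. The 19 injured cells had a median of 2 and a maximum of 6, so the injured maximum lay below the control 10th percentile. In contrast to the neutrophils, the richest 10% of control monocytes held 19.96% of the member UMIs. The 89 control nonclassical monocytes had a median of 7 and a Fano factor of 2.17.

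**Figure D4:**
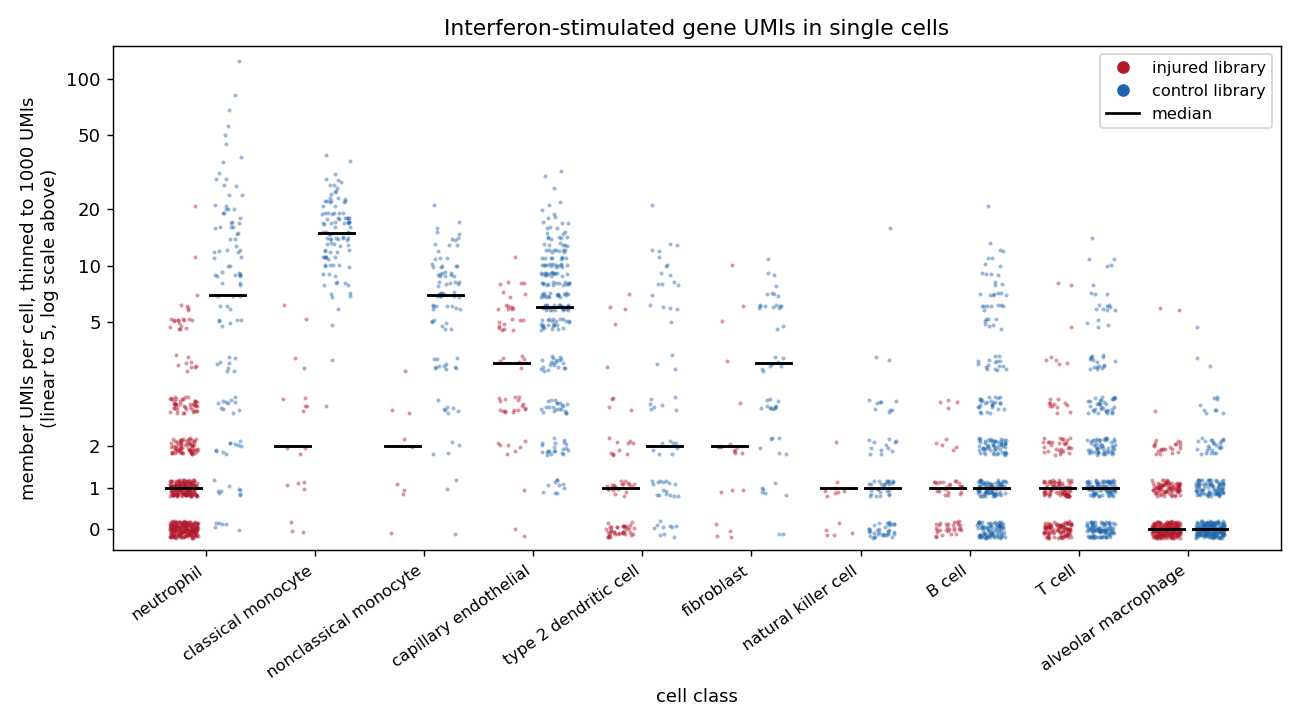
Member UMIs in single cells, each thinned to 1000 UMIs, by class and library (injured red, control blue), with the median as a black bar; the axis is linear to 5 and logarithmic above, and points are spread slightly to show overlap. Control neutrophils run from 0 to 125, while control classical monocytes crowd around a median of 15 and injured cells of both classes lie near the bottom.

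Leaving out Ifitm3, Bst2 and Ifi27l2a, 56 of 111 control neutrophils (50.5%, exact binomial interval 40.8% to 60.1%) and 48 of 101 control classical monocytes (47.5%, 37.5% to 57.7%) had at least 5 UMIs of the other 37 members. The injured counts were 16 of 543 neutrophils (2.95%, 1.69% to 4.74%) and 0 of 19 classical monocytes, which allows a share of up to 17.6%. In control alveolar macrophages it was 0 of 320, which allows up to 1.15%. Cells of a library are not replicates, so these intervals describe the cells of that library only. Not thinned, where deep cells pass more easily, the shares were 69.7% and 7.84% for control and injured neutrophils and 94.1% and 57.9% for the monocytes. Capillary endothelial cells had medians of 6 (control, 233 cells) and 4 (injured, 58 cells), fibroblasts of 4 (52 cells) and 2 (21 cells), type 2 dendritic cells of 2 (64 cells) and 1 (78 cells), and natural killer cells of 1 in both (87 and 13 cells). For Isg15 alone, 58 of the 111 thinned control neutrophils (52.3%) had a UMI, against 15 of 543 injured (2.76%) and 2 of 320 control alveolar macrophages (0.625%).

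The rest of the pathway was read from a list of ligands, receptors, signalling genes and targets. Of the ligands, the 16 type I and 2 type III interferon genes listed gave 0 counts in either library, which says only that none was captured. Ifng, the type II ligand, gave 12 injured and 27 control counts and was called lower in the whole library. Among the classes compared it could be tested only in T cells and natural killer cells, and was called lower in neither. In T cells it was called higher, as were 40.3% of all genes there. In natural killer cells (13 injured and 88 control) it was within the rule. The whole-library call thus does not show a lower Ifng level within these classes. The shares of all genes called in the whole library, 17.1% lower and 22.2% higher, stand beside the counts that follow. Of 6 receptor genes 0 were called lower and 1 higher: Ifnar1 was at 45.4 and 47.1 CPM and Ifnar2 at 74.5 and 84.6 CPM, while Ifnlr1 had 56 and 8 counts. Of the kinases and factors, Irf1, a transcription factor, was called lower at 31.5 and 50.1 CPM, Jak1 was within the rule at 185 and 205 CPM, and Jak2 was called higher at 99.4 and 30.5 CPM. Of the sensors and adaptors 2 of 7 tested were lower and 1 higher, and of the 4 feedback genes Socs3, which blocks cytokine receptors, was higher at 154 and 73.5 CPM. Of 15 targets associated with interferon gamma, 10 were called lower, for example Irgm1 (11 and 32.3 CPM) and Psmb9 (67.8 and 125 CPM), and 1 higher, Nos2 on 33 and 6 counts.

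Within the classes the receptors and Socs3 were read again. In neutrophils Ifnar2 was at 93.7 and 105 CPM and Ifnar1, called higher, at 91.3 and 60.1 CPM. In classical monocytes Ifnar1 was at 72.2 and 73.5 CPM and Ifnar2 at 144 and 191 CPM, while Ifngr2 was called lower at 86.7 and 179 CPM, 2.07-fold (1.27 to 3.56). Socs3 was higher in both, at 743 and 282 CPM in neutrophils and at 766 and 75.2 CPM in classical monocytes. In fibroblasts 3 of 5 receptor genes tested were called lower, against 30.7% of all genes: Ifnar2 (3 and 53 counts), Ifngr1 (77.5 and 357 CPM) and Il10rb (1 and 16 counts). Ifnar1 (38.8 and 35.7 CPM) and Ifngr2 (51.7 and 60.7 CPM) were within the rule there. Of the interferon gamma-associated targets tested, 6 of 8 were called lower in neutrophils (10% of all genes), 7 of 9 in classical monocytes (23.5%) and 10 of 13 in capillary endothelium (22.1%), there with Gbp4 at 41.5 and 135 CPM, and Socs1, which inhibits the receptor kinases, gave 2 and 51 counts, a ratio of 7.88 (2.07 to 66.9).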

How the data were processed

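The authors deposited raw UMI counts as 1 gene-by-barcode matrix per library. Per the file headers these came from Cell Ranger 4.0.0, and the authors had not scaled them. The members and gene lists were chosen with earlier results of these data known. Barcodes were kept from 500 UMIs and 200 genes upward if no more than 15% of UMIs were mitochondrial, and cells that scored highest against simulated doublets (0.8% per 1000 cells, 40 neighbours) were removed, which left 4600 of 5376 barcodes. Counts were scaled to 10000 per cell and logged. 2000 variable genes, without the members, gave 30 principal components, a shared-neighbour graph (20 neighbours) and Leiden clusters at resolution 1 (leidenalg 0.10.2, Python 3.11.15), without batch integration, so a cluster mostly of 1 library may be that library. A cluster was named where its list led the 10 leading genes and at least 3 markers were 3-fold above the other cells and in 20% of its cells. Counts were summed per class and library, with exact Poisson intervals for levels and exact conditional intervals for ratios. A class was compared where each library had 10 or more of its cells, and those under 50 in 1 library (classical monocytes, natural killer cells, fibroblasts, both alveolar epithelial classes) are thin. A count of 0 was set against a floor of 3 counts. Every member is named with its level in both libraries, and within a class names were drawn from the 3 highest members and the 3 with the largest folds each way. Other members named in a class were chosen after their values were seen. The ratio steps were tested on simulated counts. Alternatives to the cell filter, doublets, scaling, weighting, members, clustering and count minimum are described at the end. Part of the pathway list is not reported here.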

Additional observations from a re-analysis of the deposited data

How the results depend on the processing

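No paired analysis was possible because each group had 1 library. No called sum changed its direction under the settings tried. The whole-library sum, 3.61-fold lower, was 3.33-fold lower with a mitochondrial limit of 10%, 3.49 with doublets kept, 3.76 with median-of-ratios size factors, 3.94 with each cell weighted the same, 2.77 without Ifitm3, Bst2 and Ifi27l2a, and 1.96 without neutrophils and monocytes, the last chosen after seeing the data. Size factors moved the log2 ratios of a class by up to 0.40 (T cells; neutrophils 0.23, alveolar type 1 cells -0.32). With them the folds were 12.5 in neutrophils, 6.88 in classical monocytes, 2.37 in T cells, 1.88 in capillary endothelium, 1.78 in airway secretory cells (6 members lower) and 1.01 in alveolar macrophages. Without those 3 genes they were 9.33 in neutrophils, 9.47 in classical monocytes, 2.18 in type 2 dendritic cells, 1.73 in B cells, 1.35 in T cells and 0.680 in alveolar type 2 cells. With each cell weighted the same they were 5.09 in type 2 dendritic cells, 2.55 in B cells, 2.36 in alveolar type 1 cells and 2.07 in airway secretory cells (7 members). With the mitochondrial limit at 10% they were 3.36 in type 2 dendritic cells, 1.61 in T cells, 1.10 in fibroblasts and 0.571 in airway secretory cells (1 member, as in alveolar type 2 cells). With doublets kept they were 3.35 in type 2 dendritic cells, 2.07 in fibroblasts (21 members), 1.97 in T cells and 1.16 in alveolar macrophages, with 1 member in alveolar type 2 cells. With each library clustered alone they were 18.6 in classical monocytes, 1.61 in T cells and 0.740 in airway secretory cells (5 members), at resolution 2 17.9 in classical monocytes, and with members among the clustering genes 3.24 in type 2 dendritic cells. Without the richest cell of each library the B cell fold was 2.59, and 6 members were lower in natural killer cells and 1 in alveolar type 2 cells. With no count minimum the members lower were 26 in airway secretory cells, 26 in fibroblasts, 23 in natural killer cells, 14 in alveolar macrophages, 13 in alveolar type 1 cells and 11 in alveolar type 2 cells, and with 10 CPM added to both sides 2 in alveolar macrophages. The share of all genes called under the changed settings is not given, so the member counts here are not set against a background. Not thinned, the shares of cells with at least 5 UMIs of the other 37 members were 28.9% and 45.3% over all injured and control cells (26 of 2027 and 194 of 1965 cells thinned), 7.84% and 69.7% in neutrophils and 57.9% and 94.1% in classical monocytes. The causes of these changes were not tested. Settings that left a class with under 10 cells in a library gave no value for it, which touched the alveolar epithelial, fibroblast and natural killer classes. Beyond these, 86 values of sums and 119 counts of members moved by less than their counting interval or 1.5 times. The limits are 1 library per group, titles and treatment tags at odds, 19 injured classical monocytes, 13 natural killer cells and 39 fibroblasts. Class names were rebuilt from markers, and the intervals leave out the spread between cells and between animals.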

Other observations

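The cells richest in members stood apart within their classes. Ranked by UMIs of the 37 members other than Ifitm3, Bst2 and Ifi27l2a per 1000 UMIs, 10 of the 12 highest control cells were neutrophils of the cluster that both libraries shared and 2 were classical monocytes. The highest control neutrophil had 262 such UMIs among 2542 and 27 of the 37 members, led by Isg15 with 59, Rsad2 with 37 and Ifit1 with 23. The next had 61.2 per 1000 and 29 members. At least 10 per 1000 were found in 27 of 111 control neutrophils, 14 of 101 control classical monocytes, 9 of 233 control capillary endothelial cells and 2 of 543 injured neutrophils. The same level was reached in 2 of 315 control B cells, 1 of 304 control T cells and 1 of 87 control natural killer cells. All were counted over cells with at least 1000 UMIs.

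A few injured cells other than neutrophils were also rich in members. 1 injured cell of the alveolar type 1 class had 160 UMIs of the 37 members among 18275 and 32 of the 37 members, led by Isg15 with 36, and held 17.6% of the member UMIs of its class. 2 injured T cells had 16 and 14 of the 37 members.

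Not thinned, control classical monocytes had a median of 21 of the 37 members per cell and injured ones 5, at median depths of 11066 and 11423 UMIs. The median for control neutrophils was 6, at 2780 UMIs.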
